A study of Homo sapiens with 12 samples.

Results

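The genes described here are 36 genes of the ATF4 stress response and of amino acid supply, taken by symbol from a table of 43876 genes. All 36 were found in the table. A gene was tested where 3 or more libraries had an FPKM of 1 or higher, which left 33 of the 36 among 18574 genes. FPKM is the number of fragments of a gene divided by its length and by the depth of the library. The 36 genes were divided by role into 15 regulators and stress effectors, 7 serine and one-carbon enzymes, 6 other amino acid enzymes and 8 transporters. RNA of MV4-11, a human acute myeloid leukemia cell line with FLT3-ITD, was sequenced in 12 libraries, 3 for each of 4 treatments of 24 h. The treatments were 20 nM mitoxantrone (Mitoxantrone), 25 nM gilteritinib (Gilteritinib), 20 nM mitoxantrone with 20 nM gilteritinib (Combination), and DMSO, the control. Mitoxantrone is the name in the sample labels, whereas the study calls the drug mitoxantrone-liposome. The labels give the genotype of all samples as wild-type, and all libraries come from 1 cell line. Mitoxantrone is a topoisomerase II poison and gilteritinib is a kinase inhibitor of FLT3.

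ATF4 is a transcription factor whose protein is made more efficiently when the initiation factor eIF2 is phosphorylated, which several kinases do in response to amino acid shortage, misfolded protein in the endoplasmic reticulum, heme shortage or viral RNA. It binds, often with CEBPB or CEBPG, to elements in genes for serine and one-carbon metabolism, amino acid transport and stress. The RNA level of ATF4 is therefore an incomplete measure of its activity, and the protein was not measured in these libraries.

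A frequent form of the element bound by ATF4 with a C/EBP partner is TGATGNAAN, where N is any base. It was searched on both strands in the RefSeq promoter windows of GRCh38.p14, which run from 250 bases before to 50 bases after a gene start. Of the 36 genes, 28 had a window and 8 did not. The motif was in 11 of 49 windows of these genes (22.4%) and in 3.61% of all 35116 windows. The 11 windows belonged to 9 genes, which were CHAC1, CEBPG, JDP2, ASNS, MTHFD1L, SLC1A4, SLC1A5, SLC3A2 and SLC7A1. For MTHFD1L, 3 overlapping windows held the same site, so the windows are not independent. The genes were chosen as an ATF4 response, so a higher share is partly built in. The windows of TRIB3, PHGDH, PSAT1, ATF5 and DDIT4 held no match, which says only that these letters were not in these windows. The matches that lie before a start are shown for 6 genes, because CHAC1 and ASNS, which both carry one, had very different values in the libraries. The capitals mark the match on the strand of the gene, and for CHAC1 the motif reads on the other strand.
CHAC1, chr15:40953251-40953279, plus strand: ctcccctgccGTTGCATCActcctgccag
ASNS, chr7:97872458-97872486, minus strand: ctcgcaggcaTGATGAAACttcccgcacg
CEBPG, chr19:33374061-33374089, plus strand: gcgcggcgtcTGATGCAACctgccggcaa
JDP2, chr14:75427996-75428021, plus strand: tagccggggcTGATGCAACccgtccc
MTHFD1L, chr6:150866347-150866375, plus strand: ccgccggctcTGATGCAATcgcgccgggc
SLC1A5, chr19:46784893-46784921, minus strand: aggaagtggcTGATGCAAGctgtccaggg

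Depth was between 31724882 and 41331024 fragments per library, recovered from the steps of the FPKM values. The defining markers of the cell line were present. FLT3 lay between 132 and 171 FPKM, and CD33, SPI1, CEBPA, PTPRC and LYZ were also well above 1 FPKM, while CD68 did not exceed 0.196 FPKM. Of 9 markers of other cell types, CD3E, MS4A1, HBG1, EPCAM, COL1A1 and ALB were at or near 0. Libraries 2 and 3 of a condition were much closer to each other than either was to library 1. The median chi-square of fragment numbers per gene was 1.25 to 3.07 between libraries 2 and 3 and 5.52 to 10.2 between either of them and library 1, against 0.455 from sampling alone. The sources do not say whether a replicate number stands for a culture, a day or a library preparation, so p-values measure the spread between these libraries, which may be technical.

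The ATF4 genes divided the libraries by replicate number more than by drug. ATF4 itself (chromosome 22, 39519695 to 39522685, plus strand, GRCh38) read 81.6, 145 and 142 FPKM in DMSO replicates 1, 2 and 3. It read 79.5, 155 and 166 FPKM in Mitoxantrone, 80.3, 144 and 154 FPKM in Gilteritinib, and 67.3, 143 and 145 FPKM in Combination. The 4 libraries of replicate 1 were all below the other 8, and the 4 treatments overlapped. On the log2(FPKM + 1) scale, ATF4 was lower in replicate 1 than in replicates 2 and 3 by a log2 difference of -0.95 (SE 0.05, limma adjusted p = 2.40e-05), which was a difference between means of 77.2 and 149 FPKM. This split was set up with earlier results of these data known, in which replicate 1 stood apart. The p-values for it, here and below, therefore describe the split and are not an independent test of it.

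In the same comparison, replicate 1 against replicates 2 and 3, 26 of the 33 tested genes were lower at an adjusted p under 0.05 (limma, 12 libraries) and 0 were higher. Of all genes tested, 12.1% were lower and 26.3% were higher. The median log2 difference was -0.53 for the 33 genes and 0.09 for all genes. With median-ratio scaling the median of all genes became 0.01, and with quantile normalization -0.01, a shift of about 0.1 that moved 4883 higher calls among 7123 to 3108 among 6659 under median-ratio scaling. There 28 of the 33 genes were lower. Lower calls also rose over all 18574 genes, from 2240 in the main fit to what is left of the 6659 calls without the 3108 higher ones. The 28 are therefore not to be set against the 12.1% of the main fit. CHAC1 and SLC6A9 reached 1 FPKM only in replicates 2 and 3 and passed the filter through these libraries, so a difference in this direction was built in for both. Without them 24 of 31 genes were lower, against 11.7% of all genes that reached 1 FPKM on both sides. In 22 of the 33 genes all 4 libraries of replicate 1 lay below all 8 others, which was so in 6.39% of all genes, and without CHAC1 and SLC6A9 in 20 of 31, against 6.16% of all genes that reached 1 FPKM on both sides.

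**Figure D1:**
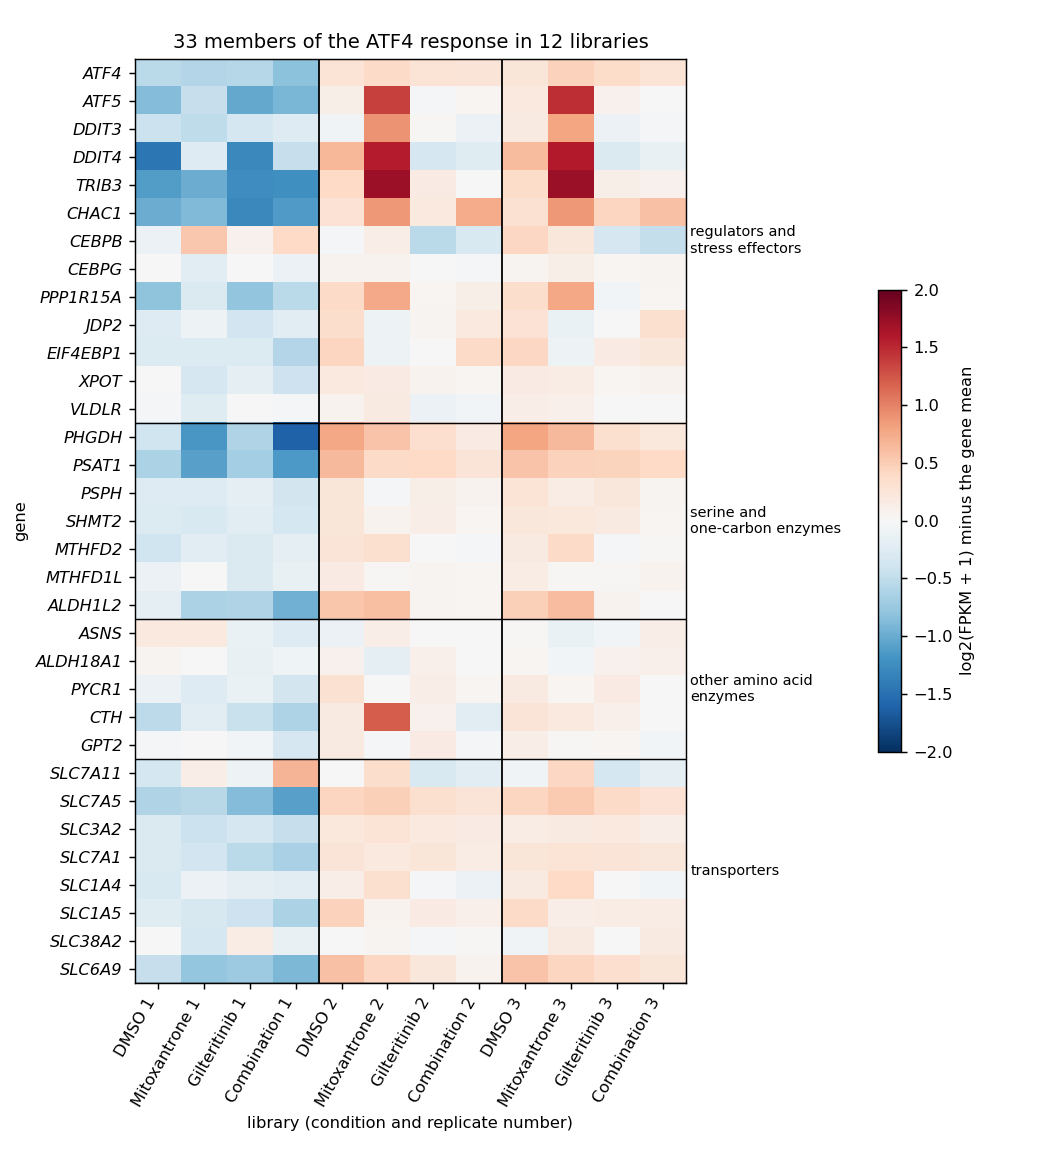
Each row is 1 of the 33 tested genes and each column 1 library, ordered by replicate number and then by treatment; color gives log2(FPKM + 1) minus the mean of the gene over the 12 libraries. The 4 columns of replicate 1 are blue in most rows, and the Mitoxantrone columns of replicates 2 and 3 are the darkest red for ATF5, DDIT4 and TRIB3.

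Among the regulators and stress effectors, 10 of 13 tested genes were lower in replicate 1, CHAC1 among them. CHAC1, an enzyme that degrades glutathione, had 0.821, 3.42 and 3.45 FPKM in DMSO, 0.962, 5.58 and 5.56 FPKM in Mitoxantrone, 0.478, 3.15 and 3.84 FPKM in Gilteritinib, and 0.636, 5.05 and 4.39 FPKM in Combination, for replicates 1, 2 and 3. No library of replicate 1 reached 1 FPKM and all other libraries were above 3 FPKM. The log2 difference was -1.61, given as a description because of the filter. PPP1R15A, the phosphatase subunit that reverses eIF2 phosphorylation, had 8.99, 21.7 and 21.3 FPKM in DMSO, 13.3, 28.4 and 28.6 FPKM in Mitoxantrone, 9.10, 17.0 and 15.8 FPKM in Gilteritinib, and 11.0, 17.9 and 16.9 FPKM in Combination. Again replicate 1 lay below the rest, by a log2 difference of -0.90 (SE 0.08, adjusted p = 0.000221). TRIB3, a pseudokinase that binds ATF4 and limits its activity, and ATF5, a related transcription factor, were lower by -1.72 (SE 0.20) and -1.22 (SE 0.13). These 2 genes, and DDIT3, ALDH1L2, SLC1A4, EIF4EBP1 and others outside the rule stated in the methods, were chosen after their values were seen. DDIT3 (CHOP, a pro-apoptotic transcription factor), EIF4EBP1 (a repressor of cap-dependent translation), JDP2 and XPOT, the exporter of tRNA from the nucleus, were lower by -0.34 to -0.58. CEBPB, CEBPG and VLDLR did not pass the threshold, with values of 0.34, -0.13 and -0.11.

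All 7 serine and one-carbon enzymes were lower in replicate 1, and in each of the 7 the replicate 1 libraries lay below all others. PHGDH, which takes 3-phosphoglycerate into serine synthesis (chromosome 1, 119648411 to 119744226, plus strand), had 12.1, 28.5 and 28.9 FPKM in DMSO and 6.74, 24.7 and 26.1 FPKM in Mitoxantrone. It had 10.4, 20.8 and 20.6 FPKM in Gilteritinib and 4.62, 18.3 and 19.0 FPKM in Combination. PHGDH was highest in DMSO and lowest in Combination at replicate 1, and the same held at replicates 2 and 3. PSAT1, the next enzyme of the pathway, had 53.8, 132 and 125 FPKM in DMSO, 39.1, 109 and 116 FPKM in Mitoxantrone, 51.8, 111 and 114 FPKM in Gilteritinib, and 37.3, 100.3 and 110.4 FPKM in Combination. Its lowest value in replicates 2 and 3 was 100.3 FPKM and its highest in replicate 1 was 53.8 FPKM. SHMT2, the mitochondrial enzyme that splits serine into glycine and a one-carbon unit, had 44.5, 63.7 and 63.2 FPKM in DMSO, 43.6, 56.8 and 62.3 FPKM in Mitoxantrone, 46.2, 58.8 and 60.8 FPKM in Gilteritinib, and 42.2, 55.5 and 55.5 FPKM in Combination. Its replicate 1 values spanned only 42.2 to 46.2 FPKM. The log2 differences between replicate 1 and the others were -1.42 (SE 0.13) for PHGDH, -1.33 (SE 0.07) for PSAT1 and -0.42 (SE 0.04) for SHMT2, with adjusted p = 0.000240, 2.04e-05 and 0.000204 (limma). ALDH1L2, a mitochondrial folate enzyme, was lower by -0.90, PSPH, which releases serine from phosphoserine, by -0.41, MTHFD2 by -0.40 and MTHFD1L by -0.21.

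Among 8 transporters, 6 were lower in replicate 1, SLC6A9 among them. SLC7A5, the large neutral amino acid exchanger, had 50.2, 103 and 104 FPKM in DMSO, 51.8, 107 and 111 FPKM in Mitoxantrone, 41.7, 96.5 and 99.9 FPKM in Gilteritinib, and 35.5, 92.0 and 93.9 FPKM in Combination. SLC3A2, the heavy chain that brings SLC7A5 and SLC7A11 to the membrane, had 44.5, 63.0 and 60.8 FPKM in DMSO, 40.4, 66.4 and 62.1 FPKM in Mitoxantrone, 43.2, 62.3 and 62.6 FPKM in Gilteritinib, and 39.5, 61.0 and 60.3 FPKM in Combination. Neither gene had a library of replicate 1 that overlapped the others. SLC6A9, a glycine transporter, was low, with 0.511, 2.11 and 2.09 FPKM in DMSO, 0.209, 1.76 and 1.80 FPKM in Mitoxantrone, 0.257, 1.42 and 1.63 FPKM in Gilteritinib, and 0.115, 1.17 and 1.45 FPKM in Combination. Its lowest library held about 21 fragments by the recovered depth. The log2 differences were -1.17 (SE 0.05) for SLC7A5 and -0.56 (SE 0.04) for SLC3A2, with adjusted p = 2.04e-05 and 7.23e-05 (limma). SLC6A9 is given as a description because of the filter, with means of 0.273 FPKM in replicate 1 and 1.68 FPKM in the others. SLC7A1, SLC1A5 and SLC1A4, carriers of cationic and small neutral amino acids, were lower by -0.70, -0.60 and -0.32. SLC7A11, the cystine importer, and SLC38A2, a sodium-coupled neutral amino acid transporter, did not pass, with 0.14 and -0.12.

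**Figure D2:**
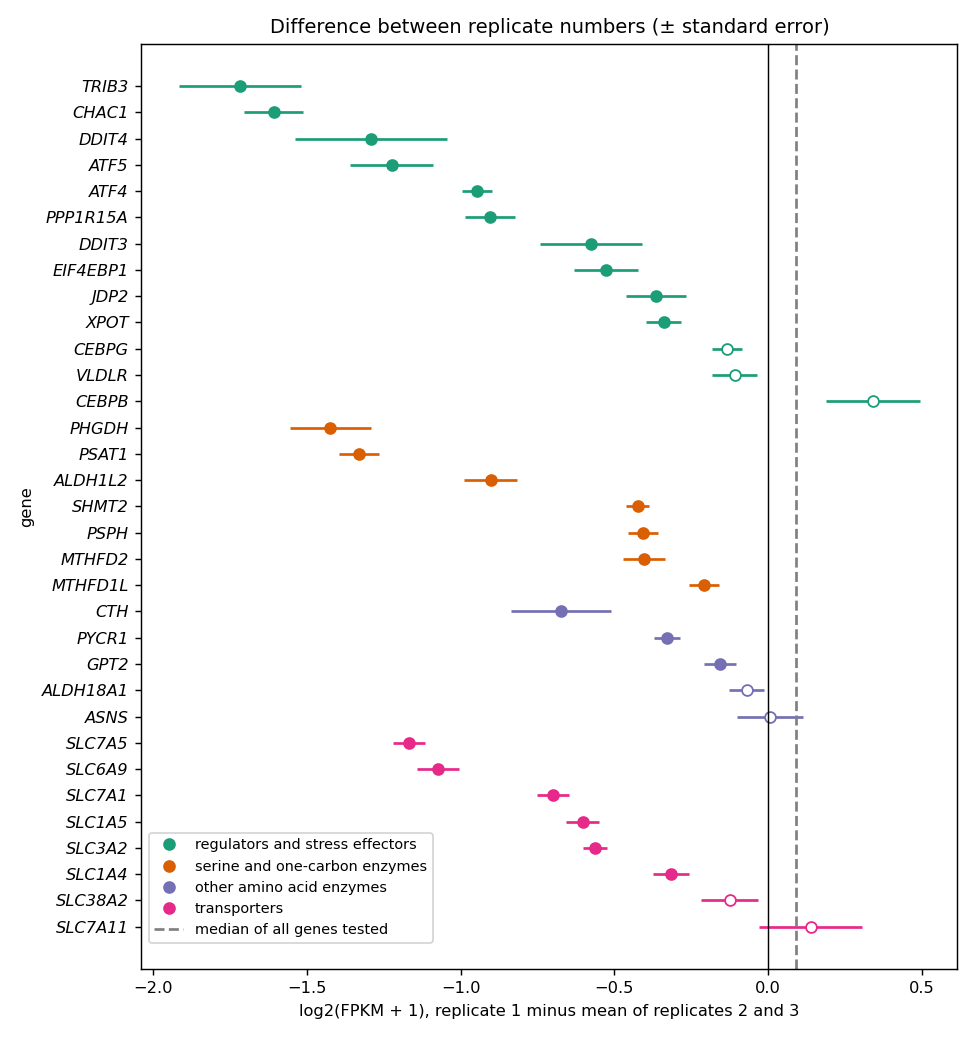
The horizontal axis is the difference in log2(FPKM + 1) between replicate 1 and the mean of replicates 2 and 3 for each of the 33 genes, with bars of 1 standard error; filled points passed an adjusted p under 0.05 and the dashed line is the median of all genes tested. The 26 filled points are all below 0, from TRIB3 at -1.72 to GPT2 at -0.16, and 7 points are open; CHAC1 and SLC6A9, which are among the filled points, passed the filter only through replicates 2 and 3.

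Among the other amino acid enzymes, 3 of 5 tested genes were lower in replicate 1. CTH, which makes cysteine from cystathionine, had 1.12, 2.42 and 2.63 FPKM in DMSO, 1.60, 5.99 and 2.47 FPKM in Mitoxantrone, 1.24, 2.22 and 2.26 FPKM in Gilteritinib, and 0.979, 1.60 and 2.02 FPKM in Combination. Mitoxantrone replicate 2 stood alone at 5.99 FPKM, and the log2 difference between replicate 1 and the others was -0.67 (SE 0.16, adjusted p = 0.0120). PYCR1, a mitochondrial enzyme of proline synthesis, had 15.2, 20.8 and 19.0 FPKM in DMSO, 13.7, 16.6 and 17.2 FPKM in Mitoxantrone, 15.2, 18.3 and 18.8 FPKM in Gilteritinib, and 12.7, 17.1 and 16.8 FPKM in Combination. It was lower in replicate 1 by -0.33 (SE 0.04, adjusted p = 0.000791) with no overlap. GPT2, the mitochondrial alanine transaminase, was lower by -0.16 (adjusted p = 0.0448), a call that was lost under most alternatives, among them each left-out library except Mitoxantrone replicates 1 and 2. ASNS, asparagine synthetase and a textbook ATF4 target (chromosome 7, 97852118 to 97872542, minus strand), stayed between 1.63 and 2.61 FPKM in all 12 libraries, with a log2 difference of 0.01 (SE 0.11). ALDH18A1, which starts proline synthesis, gave -0.07. NUPR1, STC2 and CBS did not pass the filter on low values. NUPR1 had at most 6 fragments in a library and STC2 at most 23, while CBS lay between 0.203 and 0.801 FPKM.

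Other genes of the pathway were counted in the same comparison, in which 26.3% of all genes were higher and 12.1% lower. Among cytosolic aminoacyl-tRNA synthetases, which charge tRNA with amino acids, 14 of 19 tested genes were lower in replicate 1 and 0 were higher, with AARS1 at -0.99 (SE 0.04) and YARS1 at -0.73 (SE 0.04). Among the eIF2 kinases and other controllers of eIF2, 7 of 17 were lower and 1 was higher. Of 8 further stress genes linked to ATF4, 4 were lower, led by VEGFA at -1.21 and ADM2 at -1.15, and 3 were higher. Of genes of the ATF6 and XBP1 arms of the unfolded protein response, 8 of 17 were higher and 2 lower, one of them XBP1 at -0.83. Among NRF2 targets, genes of the antioxidant response, 5 of 10 were higher, with NQO1 at 0.83, and 0 were lower. Of the other serine, folate and methionine cycle enzymes, 2 of 12 were higher and 3 lower; of other amino acid transporters, 3 of 10 were higher and 2 lower; of other glutamine, aspartate, proline and branched-chain enzymes, 2 of 13 were higher and 4 lower. Markers moved as well. The summed level of the 9 genes listed as markers of other cell types was 11.7 to 15.4 FPKM in replicate 1 and 17.0 to 29.1 FPKM in replicates 2 and 3. PECAM1 was lower in replicate 1 by -0.58 and HBB by -0.98. Whether any other cell type was present was not tested. The summed level of 10 myeloid markers was 1021 to 1718 FPKM against 873 to 943 FPKM, with LYZ higher by 0.91 and CSF1R lower by -0.79. The part of these markers in the difference of the ATF4 genes was not tested, and a change in the make-up of the culture cannot be told apart from a change in RNA per cell. Between replicates 2 and 3, 0 of the 33 genes passed an adjusted p under 0.05 and 0 an unadjusted p under 0.05, against 4.45% of all genes at the latter.

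**Figure D3:**
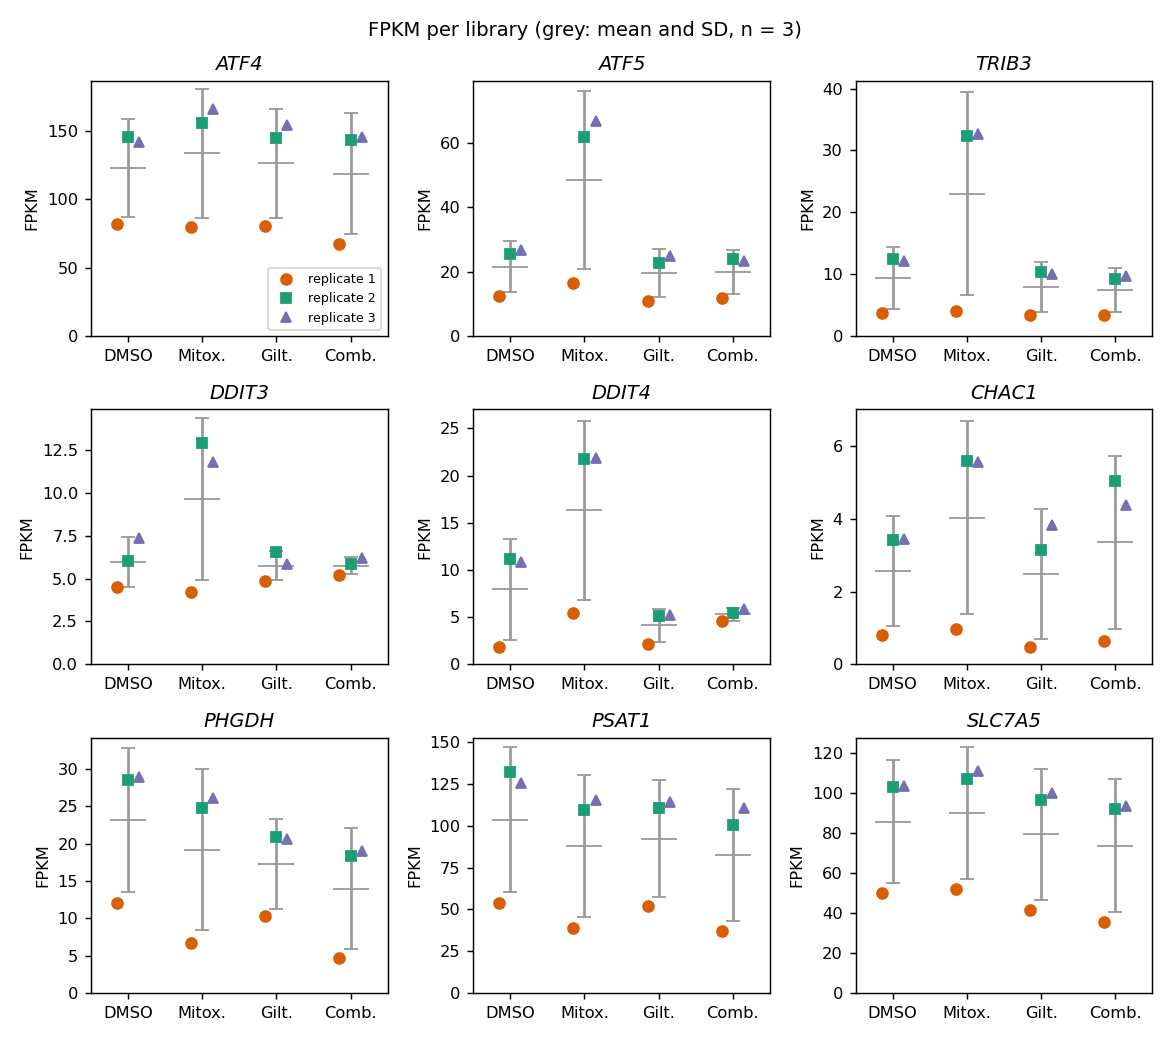
Each panel gives the FPKM of 1 gene in the 12 libraries, with treatment on the horizontal axis (Mitox., Mitoxantrone; Gilt., Gilteritinib; Comb., Combination), replicate number as color and shape, and the mean and SD of 3 libraries in grey. Replicate 1 lies lowest within each treatment in all 9 panels, and ATF5, TRIB3, DDIT3 and DDIT4 rise well above DMSO in Mitoxantrone replicates 2 and 3.

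The study set the combination against each single drug and against DMSO, and the design also allows each single drug to be set against DMSO. Over all 12 libraries with 1 mean per treatment, 0 of the 33 genes passed an adjusted p under 0.05 (limma) in any of the 6 comparisons between treatments or in the interaction, which is the Combination effect less the sum of both single-drug effects. The gilteritinib dose was 20 nM in Combination and 25 nM alone, so this sum is not of matched doses. At an unadjusted p under 0.05, the 33 genes gave 0 in Mitoxantrone against DMSO (7.90% of all genes), 0 in Gilteritinib against DMSO (1.86%) and 1 in Combination against DMSO (1.67%). They gave 0 in Combination against Gilteritinib (1.63%), 0 in Combination against Mitoxantrone (5.53%), 3 in Gilteritinib against Mitoxantrone (9.52%) and 0 in the interaction (2.91%). The spread between replicate numbers entered this fit, and ATF4 shows its size. The log2 difference of ATF4 against DMSO was 0.09 in Mitoxantrone, 0.03 in Gilteritinib and -0.09 in Combination, each with an SE of 0.39. Without Mitoxantrone replicate 1, 5 of the 33 genes were higher in Mitoxantrone than in DMSO at an unadjusted p under 0.05, against 10.8% of all genes in either direction.

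The 4 genes with an unadjusted p under 0.05 over 12 libraries were GPT2, DDIT4, CEBPB and SLC7A11. GPT2 had 18.9, 22.1 and 21.5 FPKM in DMSO, 19.6, 18.8 and 19.8 FPKM in Mitoxantrone, 18.7, 21.8 and 20.1 FPKM in Gilteritinib, and 15.2, 19.2 and 18.6 FPKM in Combination. Combination and DMSO overlapped because of replicate 1 of DMSO, and their log2 difference was -0.23 (SE 0.10). CEBPB, the C/EBP partner, had 13.8, 14.7 and 20.4 FPKM in DMSO, 22.2, 16.5 and 17.7 FPKM in Mitoxantrone, 16.04, 10.1 and 11.6 FPKM in Gilteritinib, and 20.1, 11.96 and 10.5 FPKM in Combination. All 3 Gilteritinib libraries were below all 3 Mitoxantrone libraries, with a log2 difference of -0.56 (SE 0.24, adjusted p = 0.497). SLC7A11 had 2.67, 3.63 and 3.47 FPKM in DMSO, 4.14, 4.98 and 5.21 FPKM in Mitoxantrone, 3.37, 2.80 and 2.67 FPKM in Gilteritinib, and 6.47, 2.98 and 3.14 FPKM in Combination. Its highest library was Combination replicate 1, while the other Combination libraries were below both of their DMSO counterparts. DDIT4 (REDD1), an inhibitor of mTORC1, had 1.82, 11.2 and 10.9 FPKM in DMSO, 5.41, 21.7 and 21.9 FPKM in Mitoxantrone, 2.13, 5.09 and 5.27 FPKM in Gilteritinib, and 4.58, 5.47 and 5.90 FPKM in Combination. Mitoxantrone was the highest treatment at each replicate number, and Gilteritinib against Mitoxantrone gave a log2 difference of -1.60 (SE 0.61, adjusted p = 0.435).

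Since replicate 1 stood apart in each treatment, the treatments were also compared with the replicate number as a block. Whether replicates 2 and replicates 3 each pair across treatments was not tested. No member passed an adjusted p under 0.05 (limma) in the block fit, and at most 5 of all genes did in any comparison. The lowest adjusted p of a member was 0.0554, for ATF5 and PPP1R15A in Gilteritinib against Mitoxantrone. At an unadjusted p under 0.05, 7 genes were higher and 5 lower in Mitoxantrone than in DMSO, against 9.45% of all genes higher and 6.46% lower. The 7 were ATF5, CHAC1, DDIT3, DDIT4, PPP1R15A, SLC1A4 and TRIB3, and the 5 were EIF4EBP1, PSAT1, PYCR1, SLC1A5 and SLC6A9. In Gilteritinib against DMSO, 3 were lower, ALDH1L2, SLC1A5 and SLC6A9, and 0 higher, against 3.70% and 1.26% of all genes. In Combination against DMSO, 12 were lower and 0 higher, against 2.32% and 2.04% of all genes. The 12 were the enzymes PHGDH at -0.80 (SE 0.17), ALDH1L2 at -0.59 (SE 0.12), PSAT1 at -0.36, PSPH, SHMT2, PYCR1 and GPT2, the transporters SLC6A9 at -0.43, SLC1A5 at -0.34, SLC7A5 at -0.27 and SLC7A1, and XPOT. The unadjusted p-values of PHGDH, ALDH1L2 and SLC1A5 were 0.00130, 0.000689 and 0.00114 (limma), and the adjusted p of each of the 12 genes was 0.9995. The counts for the other comparisons were 5 lower in Combination against Gilteritinib (4.39% of all genes in either direction), 13 lower in Combination against Mitoxantrone (12.2%), 12 lower and 1 higher in Gilteritinib against Mitoxantrone (18.0%), and 3 lower and 1 higher in the interaction (7.40%).

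Direction within each replicate number was read with no test. In Combination against DMSO, 18 of the 33 genes were lower at each of the 3 numbers and 0 were higher at each, against 13.6% and 10.8% of all genes. They included 6 of 7 serine and one-carbon enzymes, all but MTHFD2, which was higher in replicate 1, and 5 of 8 transporters. PHGDH was 0.382, 0.643 and 0.656 times its DMSO level at numbers 1, 2 and 3. In Gilteritinib against DMSO, 14 were lower at each number and 0 higher, against 16.6% and 9.51% of all genes. In Mitoxantrone against DMSO, 9 were higher and 9 lower at each number, against 20.5% and 14.8% of all genes. These were 5 of 13 regulators and stress effectors higher and 1 lower, and 4 of 7 serine and one-carbon enzymes lower and 1 higher, with the rest in the other roles. Mitoxantrone was the highest of the 4 treatments at each number for 7 of the 33 genes, against 8.68% of all genes.

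**Figure D4:**
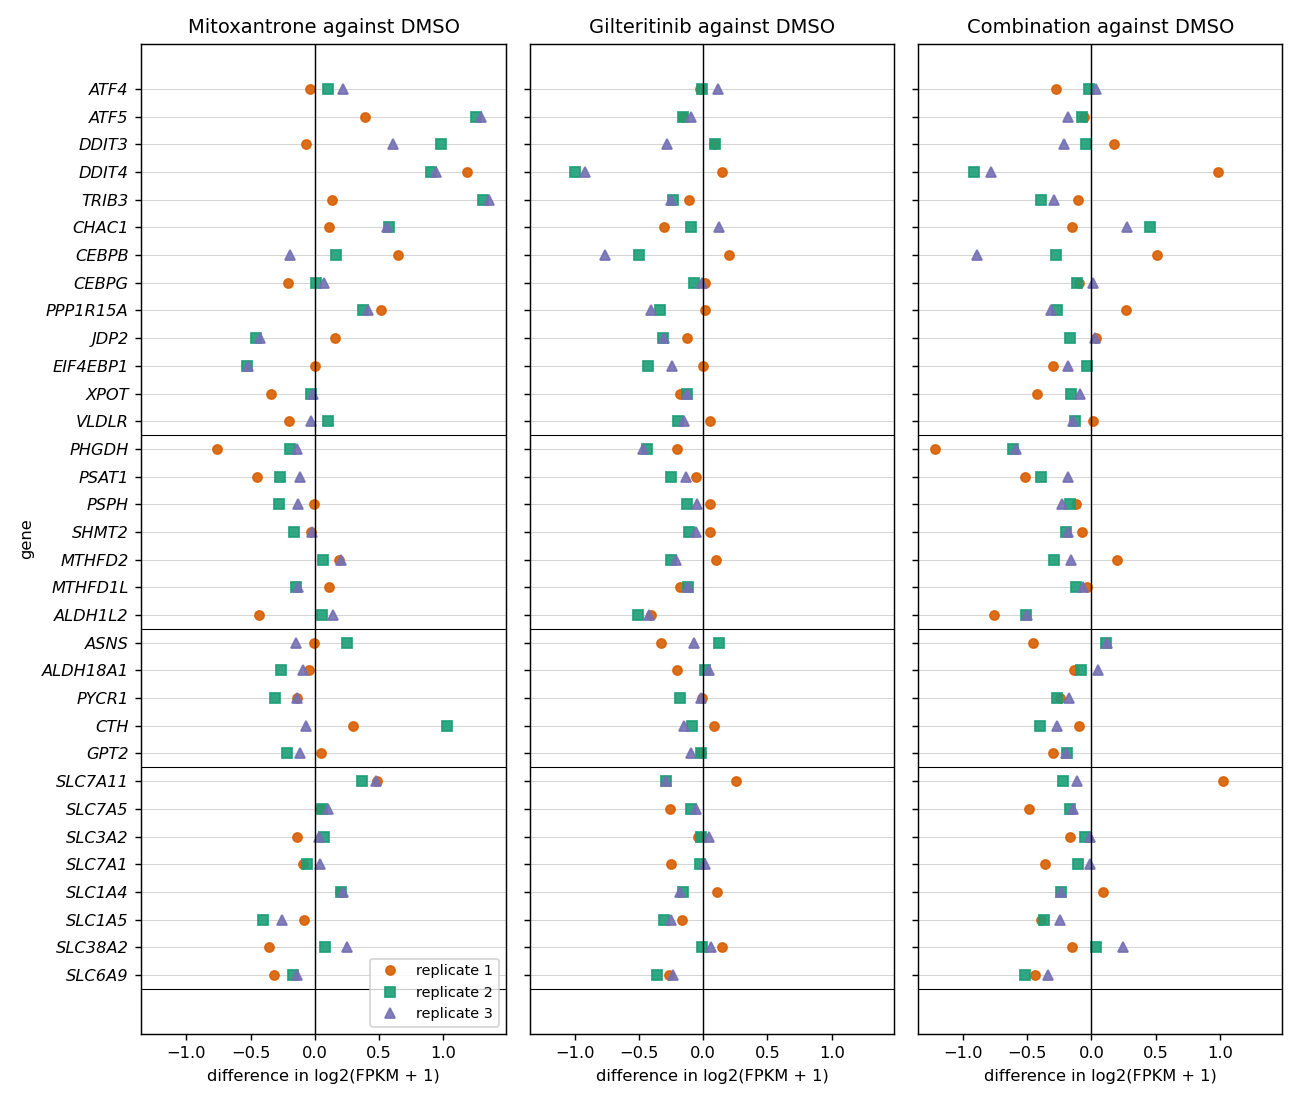
Each panel gives the difference in log2(FPKM + 1) between a treatment and DMSO of the same replicate number for the 33 genes, with replicate number as color and shape; horizontal lines separate the 4 roles. In Mitoxantrone, TRIB3 and ATF5 lie above 1.2 at numbers 2 and 3 and below 0.4 at number 1, and in Combination DDIT4 and SLC7A11 lie near 1 at number 1 and below 0 at numbers 2 and 3.

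Replicates 2 and 3 were then analysed alone (8 libraries, 17611 genes tested), a choice made after the values were seen. The spread in this fit is that between pairs of very similar libraries. In Mitoxantrone against DMSO, 12 of the 33 genes passed an adjusted p under 0.05 (limma), 8 higher and 4 lower, against 6.80% of all genes in either direction. TRIB3 (chromosome 20, 362835 to 397559, plus strand) rose from 12.4 and 12.2 FPKM to 32.3 and 32.7 FPKM, a ratio of 2.64 and a log2 difference of 1.33 (SE 0.04, adjusted p = 0.000150). In replicate 1 it had 3.67 FPKM in DMSO and 4.11 FPKM in Mitoxantrone. ATF5 rose from 25.4 and 26.7 FPKM to 61.9 and 66.7 FPKM, a log2 difference of 1.27 (SE 0.06), with 12.4 and 16.6 FPKM in replicate 1. DDIT3 rose from 6.04 and 7.36 FPKM to 12.9 and 11.8 FPKM, a log2 difference of 0.80 (SE 0.10), with 4.50 and 4.23 FPKM in replicate 1. DDIT4 rose by 0.92 (SE 0.05), CHAC1 by 0.57, SLC7A11 by 0.42, PPP1R15A by 0.39 and SLC1A4 by 0.21. EIF4EBP1 fell by 0.52 (SE 0.07), from 142 and 141 FPKM to 98.2 and 98.0 FPKM, while replicate 1 had 87.0 FPKM in DMSO and 87.2 FPKM in Mitoxantrone. JDP2 fell by 0.44, SLC1A5 by 0.33 and MTHFD1L by 0.14. ATF4 had a log2 difference of 0.16 (SE 0.05, adjusted p = 0.108). With median-ratio scaling, 7 of the 12 remained, ATF5, DDIT3, DDIT4, TRIB3 and PPP1R15A higher and EIF4EBP1 and SLC1A5 lower. With quantile normalization 11 genes passed, since CHAC1, SLC7A11 and MTHFD1L were lost and ATF4 (0.20) and SLC7A5 (0.14) were added. PECAM1, listed with the markers of other cell types, moved with Mitoxantrone too, by 0.77. Among myeloid markers, CSF1R moved by 0.89 and ITGAM by 1.05. The part of these genes in the differences was not tested. Of the 8 further stress genes linked to ATF4, 4 rose and 0 fell, led by NDRG1 at 1.07 and VEGFA at 0.66, while 0 of 17 eIF2 genes passed and, of 19 aminoacyl-tRNA synthetases, 1 passed, WARS1 at 0.25. Of the other serine, folate and methionine cycle enzymes, 5 of 12 fell and 0 rose.

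In Gilteritinib against DMSO at replicates 2 and 3, 4 of the 33 genes fell, against 0.676% of all genes called. DDIT4 fell from 11.2 and 10.9 FPKM to 5.09 and 5.27 FPKM, a log2 difference of -0.96 (SE 0.05, adjusted p = 0.00432), and in replicate 1 it read 1.82 FPKM in DMSO and 2.13 FPKM in Gilteritinib. ALDH1L2 fell by 0.46 (SE 0.05), PHGDH by 0.45 (SE 0.04) and PPP1R15A by 0.37 (SE 0.05). Only DDIT4 was called with median-ratio scaling. In Combination against DMSO, 3 genes fell, against 0.0625% of all genes, a share that is 11 genes. They were DDIT4 at -0.85 (SE 0.05), PHGDH at -0.60 (SE 0.04) and ALDH1L2 at -0.51 (SE 0.05), with adjusted p = 0.0256, 0.0256 and 0.0493 (limma). ALDH1L2 had 14.4 and 13.7 FPKM in DMSO and 9.79 and 9.38 FPKM in Combination, and in replicate 1 it had 8.11 and 4.40 FPKM. With median-ratio scaling 0 of these were called, as were 0 of all genes, and with quantile normalization DDIT4 and PHGDH were. Combination and Gilteritinib could not be separated for these genes, with 0 of 33 passing and 0.0681% of all genes called, and with 3 higher and 2 lower at an unadjusted p under 0.05, against 6.56% of all genes in either direction.

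Combination and Gilteritinib were each set against Mitoxantrone at replicates 2 and 3 alone, where over 12 libraries 0 of 33 genes had passed. In Combination against Mitoxantrone, 11 of the 33 genes were lower and 1, EIF4EBP1, was higher, against 6.71% of all genes called. In Gilteritinib against Mitoxantrone, 11 were lower and 0 higher, against 7.09% of all genes. These comparisons share the Mitoxantrone libraries. DDIT4 was lower by -1.77 in Combination and by -1.88 in Gilteritinib, TRIB3 by -1.68 and -1.58, ATF5 by -1.40 and -1.40, DDIT3 by -0.93 and -0.89, and PPP1R15A by -0.68 and -0.77. MTHFD2, a mitochondrial folate enzyme, was lower by -0.36 in both, with 47.9 and 50.2 FPKM in Mitoxantrone replicates 2 and 3, 37.3 and 38.8 FPKM in Combination and 38.4 and 37.5 FPKM in Gilteritinib. Replicate 1, with 1 library per treatment, gave 0.25 for DDIT3, 0.54 for SLC7A11 and 0.01 for MTHFD2 in Combination against Mitoxantrone. It gave -0.20 for DDIT4, -0.24 for TRIB3, -0.45 for ATF5 and -0.31 for EIF4EBP1. PHGDH was at -0.46 there, against -0.43 at replicates 2 and 3. The remaining called genes were at -0.53 for SLC7A5, -0.32 for ALDH1L2, -0.25 for PPP1R15A and -0.10 for SLC1A4. Of the called genes, DDIT3, SLC7A11 and EIF4EBP1 had the opposite sign there, and so did MTHFD2, with a value near 0. The others kept their sign. In Gilteritinib against Mitoxantrone, replicate 1 gave 0.56 for PHGDH, 0.16 for DDIT3 and 0.03 for ALDH1L2, opposite in sign to replicates 2 and 3. The rest of the 11 genes were lower in replicate 1 too. The interaction at replicates 2 and 3 passed for 5 genes, against 3.12% of all genes. TRIB3 gave -1.43 (SE 0.06), ATF5 -1.27 (SE 0.09), DDIT3 -0.83 (SE 0.14), DDIT4 -0.81 (SE 0.08) and EIF4EBP1 0.75 (SE 0.10), so at replicates 2 and 3 Combination was below the sum of both single-drug effects for the first 4 and above it for EIF4EBP1. In replicate 1 the same quantity was -0.12 for TRIB3, -0.29 for ATF5, 0.17 for DDIT3, -0.35 for DDIT4 and -0.30 for EIF4EBP1, with opposite signs for DDIT3 and EIF4EBP1. At replicates 2 and 3 all 5 also passed with median-ratio scaling and with quantile normalization. No serine or one-carbon enzyme and no transporter passed for the interaction, though SLC7A5 (-0.22) and SLC1A4 (-0.32) did with quantile normalization.

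The effect of a drug was then compared between replicate 1 and replicates 2 and 3. Replicate 1 has 1 library per treatment, so the error in this test comes from replicates 2 and 3 only. In Mitoxantrone against DMSO, 4 of 33 genes differed at an adjusted p under 0.05 (limma), against 1.78% of all genes. TRIB3 changed by 1.33 in replicates 2 and 3 and by 0.13 in replicate 1, and ATF5 by 1.27 and 0.39. PHGDH changed by -0.17 and -0.76, and ALDH1L2 by 0.10 and -0.43. In Combination against DMSO, 3 of 33 differed, against 1.01% of all genes. DDIT4 changed by -0.85 in replicates 2 and 3 and by 0.99 in replicate 1, SLC7A11 by -0.17 and 1.03, and PHGDH by -0.60 and -1.22. PHGDH was lower in Combination at each number, whereas DDIT4 and SLC7A11 had opposite signs, and the spread of a replicate 1 difference was not measured. In the interaction TRIB3 alone differed, against 0.275% of all genes. Gilteritinib against DMSO and Combination against Gilteritinib gave 0 of 33, against 0.0377% and 0.0108% of all genes, with 11 of 33 in each at an unadjusted p under 0.05, against 12.6% and 10.8%. Combination against Mitoxantrone gave 5 and Gilteritinib against Mitoxantrone 6, against 1.48% and 1.79% of all genes, and TRIB3, ATF5 and DDIT4 were in both.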

How the data were processed

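The authors deposited 1 table of FPKM for 12 libraries, with human Ensembl gene identifiers and no scaling between libraries stated. The labels describe extraction with a miRNeasy kit, amplification by Geo-seq and a TruePrep library, and the paper describes TRIzol and sequencing by a company. The submitters' processing notes name Bowtie 0.12.9, Cufflinks 2.1.1, HTSeq, DESeq2 and mm10, a mouse build that does not match the human identifiers. Which tool made the FPKM is not given in the sources used here. Of the identifiers, 41461 had a symbol and 40169 were in GENCODE 29 (GRCh38), from which positions and exon lengths were taken.

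FPKM were used as deposited, as log2(FPKM + 1), for the 18574 genes that had 1 FPKM or more in 3 or more libraries. Tests used limma 3.58.1 in R 4.3.3 over 12 libraries with 1 mean per condition, a trend of the variance on the mean, and adjustment by Benjamini and Hochberg over all genes tested within a comparison. The replicate numbers were compared in a fit with condition and number. Tables and the promoter search used Python 3.11.15 and pandas 2.3.3. The limma steps were run on simulated data with large changes planted in genes well above the filter. The outcome is not given here, and small changes and changes in genes with low values were not simulated. Depth was found from FPKM, length and the size of single fragments, and 72.7% of values of 5 to 20 estimated fragments came within 0.1 of a whole number. Fragment numbers per gene are estimates, and the precision they give covers counting error only.

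In deviations from condition means, all 18 pairs of libraries of the same number correlated, from 0.165 to 0.657. Replicate 1 stood apart in each condition, which by itself makes the deviations of replicates 2 and 3 correlate. Pairs of libraries of unlike number were not compared. The values therefore cannot show that replicates 2, or replicates 3, pair across conditions. The pairing used here was taken from the numbers in the titles. The genes and lists, and the comparison of replicate 1 with replicates 2 and 3, were chosen with earlier results of these data known. Values in every library are given for ATF4, for each gene with an unadjusted p under 0.05 in a comparison between conditions or the interaction, and, per role, for the 3 genes with the smallest p between replicate numbers; these were 15 genes. Other lists are given as counts with at most 2 genes each.

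Alternatives were a pseudocount of 0.1, no filter, quantile normalization, median-ratio scaling, no trend, only genes with a mean of 5 FPKM or more, the replicate block, protein-coding genes only, the 6 libraries compared, and each library left out in turn. Replicates 2 and 3 alone, with each scaling, the difference in effect between replicate numbers, and the count over genes that reached 1 FPKM in both replicate 1 and replicates 2 and 3 were added after seeing the data. The 8-library fit was first run with 1 FPKM or more in 2 or more libraries (18259 genes) and the minimum was then set to 3, after that output was seen; both are given. Leaving single libraries out of the 8 was not run.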

Additional observations from a re-analysis of the deposited data

Results flagged for a closer look

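These results were picked out because an effect differed between groups of libraries or because the drugs together differed from the sum of each. The effect of Mitoxantrone against DMSO differed, as replicates 2 and 3 minus replicate 1, by 1.20 for TRIB3, 0.88 for ATF5, 0.59 for PHGDH and 0.53 for ALDH1L2 on the log2(FPKM + 1) scale (limma, adjusted p under 0.05). For PHGDH the positive value stands for a smaller fall, and for ALDH1L2 for a change of 0.10 against -0.43. The effect of Combination against DMSO differed in the same way by -1.83 for DDIT4, -1.19 for SLC7A11 and 0.62 for PHGDH. The interaction of TRIB3 differed by -1.31. Against Mitoxantrone, the Combination effect differed by -1.57 for DDIT4, -1.44 for TRIB3, -1.18 for DDIT3, -1.13 for SLC7A11 and -0.95 for ATF5. The Gilteritinib effect differed by -1.33 for TRIB3, -0.85 for ATF5, -0.85 for DDIT4, -0.84 for PHGDH, -0.58 for ALDH1L2 and 0.31 for MTHFD1L. Both of these comparisons use the Mitoxantrone libraries. In the second, the sign turned for PHGDH, from -0.28 at replicates 2 and 3 to 0.56 at replicate 1. It also turned for ALDH1L2 and MTHFD1L, and not for TRIB3, ATF5 and DDIT4. Within replicates 2 and 3 the interaction was -1.43 for TRIB3, -1.27 for ATF5, -0.83 for DDIT3, -0.81 for DDIT4 and 0.75 for EIF4EBP1. Replicate 1 held 1 library per treatment, so its own error in these differences was not measured.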

How the results depend on the processing

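Over 12 libraries, 0 of the 33 genes were called in any comparison between conditions under each alternative that kept replicate 1 in the fit, including the replicate block and each left-out library. Calls over all genes were 0 or 1 in the main analysis. With no filter they were 3 in Mitoxantrone against DMSO, 2 in Gilteritinib against DMSO, 1 in Combination against Gilteritinib, 3 in each of Combination and Gilteritinib against Mitoxantrone, 3 in the interaction and 1 between replicates 2 and 3. The 1 gene in Combination against DMSO became 0 with a pseudocount of 0.1, a mean FPKM of at least 5, the replicate block, protein-coding genes only and the 6 libraries compared. With the replicate block, 2 genes were called in Combination and 5 in Gilteritinib against Mitoxantrone. Leaving out 1 library gave 0 to 36 genes in Mitoxantrone against DMSO, 0 to 1 in Gilteritinib and in Combination against DMSO, 0 to 20 in Combination and 0 to 41 in Gilteritinib against Mitoxantrone, 0 to 1 in the interaction and 0 to 2 between replicates 2 and 3. The highest of the first, 36, and 20 and 41, came without Mitoxantrone replicate 1.

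Replicates 2 and 3 alone changed most counts, by construction through leaving out replicate 1. In Mitoxantrone against DMSO the members called were 12, also 12 with at least 2 libraries in the filter, 7 with median-ratio scaling and 11 with quantile normalization, of 1197, 1263, 867 and 1094 genes. In the same order, Gilteritinib against DMSO gave 4, 4, 1 and 4 of 119, 114, 85 and 112, and Combination against DMSO 3, 2, 0 and 2 of 11, 10, 0 and 11. Combination against Gilteritinib gave 12, 12, 9 and 19 genes and 0 members. Combination against Mitoxantrone gave 12, 12, 10 and 13 of 1182, 1230, 771 and 989, Gilteritinib against Mitoxantrone 11, 11, 7 and 12 of 1248, 1298, 634 and 964, and the interaction 5, 5, 5 and 8 of 549, 565, 432 and 597.

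In replicate 1 against 2 and 3, members called were 22 of 4347 genes called with a mean FPKM of at least 5. That filter also removed members with low values, so 22 is not out of 33. The numbers tested under that filter are not given here, so neither count can be read as a share. With 1 library left out, members called were 24 to 26, and genes called were 5125 to 6761. With 1 library left out, ATF4 ranged from -0.17 to 0.43 in Mitoxantrone against DMSO, from -0.24 to 0.32 in Gilteritinib and from -0.36 to 0.28 in Combination, and its sign turned in each. The turned values were -0.050 and -0.096 in Mitoxantrone without its replicate 2 or 3, -0.096 and -0.14 in Gilteritinib without its replicate 2 or 3, -0.17 and -0.24 in these without DMSO replicate 1, and 0.28, 0.056 and 0.040 in Combination without its replicate 1 or DMSO replicate 2 or 3. In the 4 fits of replicates 2 and 3, the log2 fold change of ATF4, Combination against DMSO, was 0.0074, 0.0074, 0.0154 and 0.0098.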
